A study of Penaeus japonicus with 16 samples.

Results

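Serine proteases of the clip-type and membrane kinds, together with related serine proteases that carry only a general name, were followed across 5 tissues of kuruma shrimp (Penaeus japonicus). Probes were taken by words in their description (serine protease, serine proteinase, clotting factor, masquerade or tumorigenicity 14), without inhibitors, serpins, trypsins and phenoloxidases. This gave 68 of the 13875 non-control probes of a custom single-colour oligonucleotide array. The animals were untreated and looked healthy, and total RNA came from gills (3 arrays), hemocytes (4), hepatopancreas (3), lymphoid organ (3) and muscle (3), with no other treatment, strain or age in the labels. Whether the samples of 1 tissue are from different animals is not given in the labels, and p-values therefore measure only their spread, which may be technical.

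Clip-domain serine proteases circulate in arthropod hemolymph as inactive precursors and cut each other in sequence after a microbe or a wound is sensed. The last enzymes of such cascades switch on prophenoloxidase, which leads to melanin, or Spätzle, the ligand of Toll receptors, and in horseshoe crabs the clotting of hemolymph. Membrane-anchored serine proteases sit on epithelial cells and cut proteins at the cell surface, and serine proteinase homologues have lost catalytic activity but can act as cofactors. Hemocytes are the circulating blood cells, the gills exchange gas and ions with the water, the hepatopancreas is the digestive gland, and the lymphoid organ is a filter of hemolymph found in penaeid shrimp.

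The label given to the set fits only some of its members. By description, 32 of the 68 probes say only serine protease or serine proteinase, 9 name stubble, 4 serine protease 27, 3 each serine protease 14, snake and tumorigenicity 14, and 2 each clotting factor b-like, an adhesive serine protease, a CUB-serine protease and a serine proteinase homologue. Easter, nudel, a masquerade-like protein, serine protease 45-like, htra2 and a subtilisin-like protease have 1 probe each. No description names a clip domain (0 probes) or a transmembrane protease (0 probes). Htra2 is a mitochondrial protease in mammals, and subtilisin-like proteases form another family, so neither is of clip type. The 68 probes share 23 distinct descriptions, so some probes may read 1 gene. The 2 clotting factor b-like probes come from 1 assembly locus with 27 transcripts. Whether other probes with alike levels, such as the SPH mRNA and serine proteinase (cluster008450), read 1 gene was not tested.

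Each level below is the log2 of a probe's signal over the 75th percentile of its array, so 0 is that percentile and 1 unit is a 2-fold change. Of the probes on an array, 41.0% (muscle 3) to 82.3% (lymphoid organ 1) were detected, and the number of arrays limits the precision. Marker descriptions bore out the hepatopancreas label (39 of 45 markers highest there, summed level 20600 to 107000 times the 75th percentile, at most 255 elsewhere) and the muscle label (20 of 36, 43600 to 79200, at most 893 elsewhere). Hemocyte markers were highest in hemocytes for 20 of 32 probes, with a summed level of 3090 to 5920 there, 666 to 787 in gills, 281 to 495 in the lymphoid organ, 204 to 615 in hepatopancreas and 28.1 to 180.0 in muscle. Of 49 gill markers, 16 were highest in gills (summed level 149 to 332) and 19 in hepatopancreas, so they bear out the gill label poorly, and no marker of the lymphoid organ was used.

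**Figure D1:**
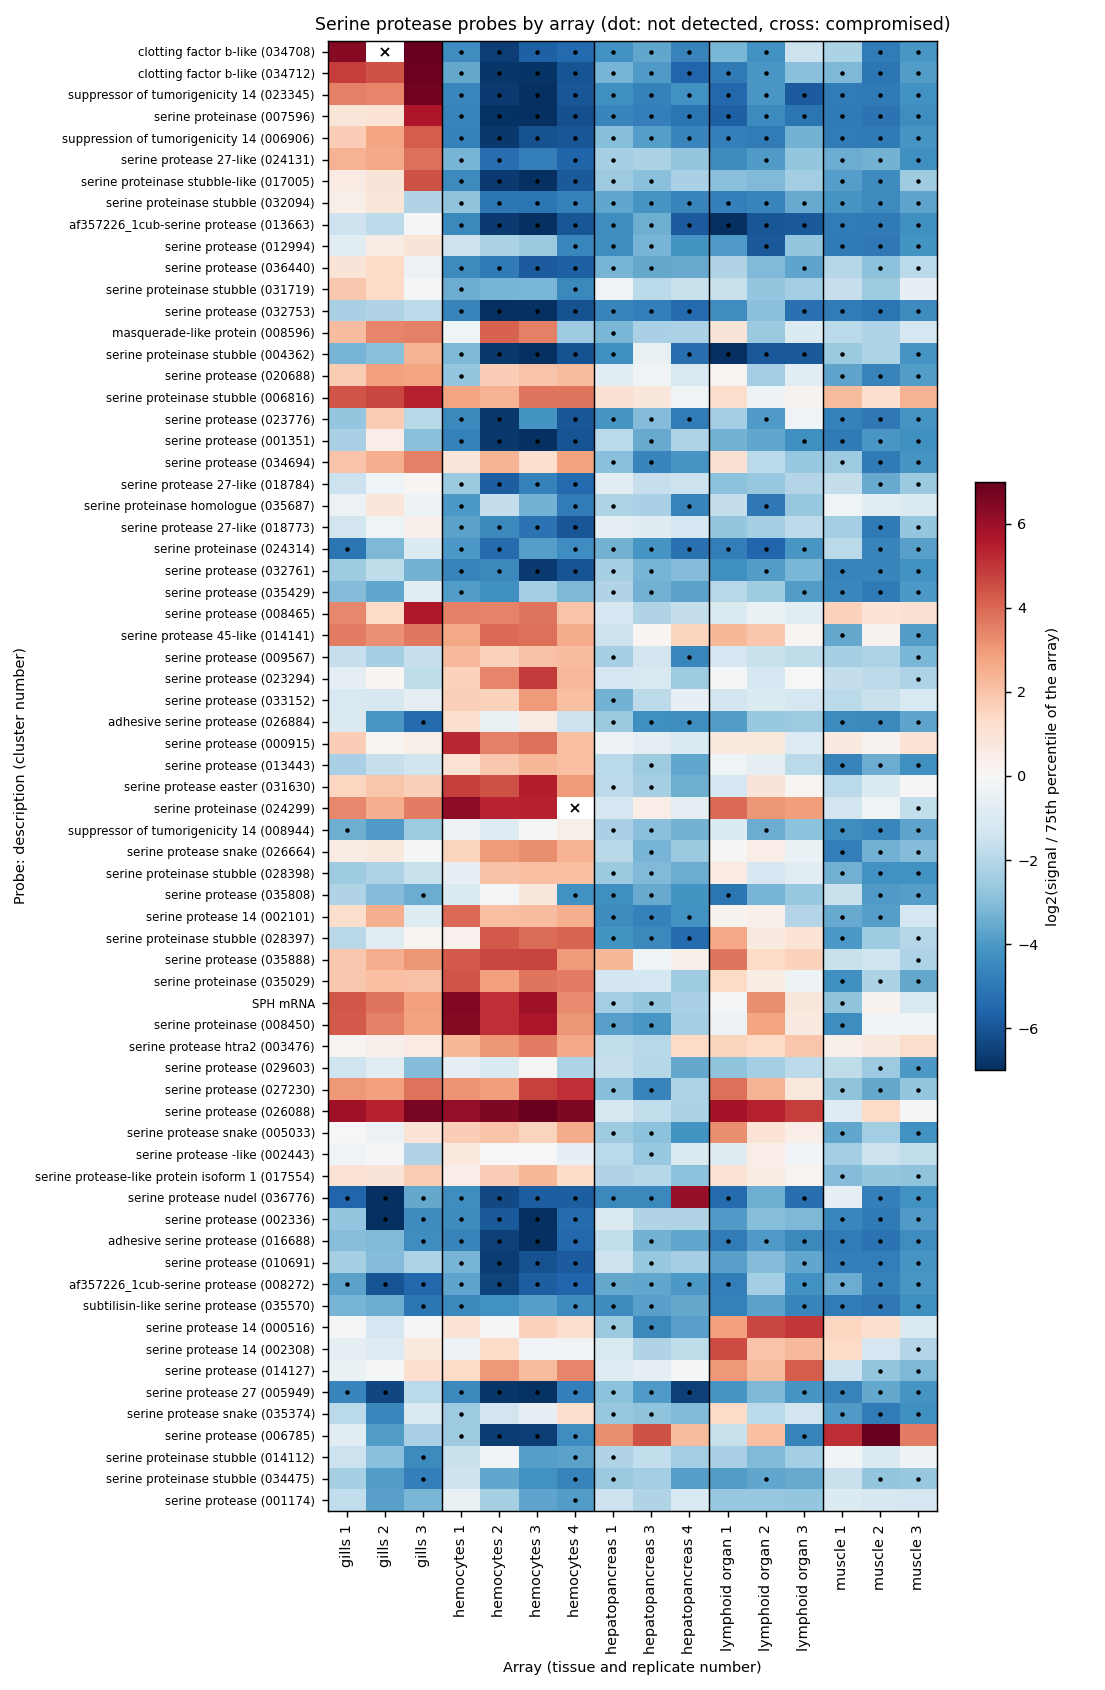
Log2 level of each of the 68 serine protease probes (vertical axis) on each of the 16 arrays (horizontal axis), with probes ordered by the tissue of their highest mean, a dot for a spot that was not detected and a cross for a compromised spot. The top block, highest in gills, is red there for its brighter probes and blue for its dimmer ones. It is mostly undetected on the hemocyte arrays. The block below it is reddest on the hemocyte arrays, and most of the hepatopancreas and muscle columns are blue.

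Higher calls of the family were concentrated in gills and hemocytes. Of the 60 probes that could be tested, 34 were higher in gills than the other 4 tissues averaged (9.15% of all tested probes were), 30 were higher in hemocytes (18.8% of all), 8 in the lymphoid organ (6.42% of all), 4 in hepatopancreas (20.5% of all) and 2 in muscle (20.4% of all). As shares of the 60 probes these are 56.7% in gills, 50.0% in hemocytes, 13.3% in the lymphoid organ, 6.67% in hepatopancreas and 3.33% in muscle. A call needed a limma adjusted p under 0.05 over all 10317 tested probes and at least a 2-fold difference. The comparisons share arrays, since each tissue is part of the mean that the others are set against.

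Lower calls were most frequent in muscle and hepatopancreas. Hepatopancreas was lower for 28 probes (46.7%, against 23.4% of all tested probes) and muscle for 29 (48.3%, against 18.4% of all). Hemocytes were lower for 20 probes (33.3%, against 27.1% of all), the lymphoid organ for 5 (8.33%, against 2.82% of all) and gills for 0 (8.16% of all; 1 member had an unadjusted limma p under 0.05). Of the 20 probes lower in hemocytes, 16 were undetected on all 4 hemocyte arrays. Undetected spots below the dimmest detected signal on their array were then raised to it. After this, 12 of the 20 were still at least 2-fold lower. So were 22 of the 29 in muscle, 27 of the 28 in hepatopancreas and 4 of the 5 in the lymphoid organ.

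A stricter class, enriched, asked for at least 4-fold over each other tissue with adjusted p under 0.05 in each pair. It held 12 probes in gills (20% of the 60, against 2.64% of all tested probes), 10 in hemocytes (16.7%, against 4.07% of all) and 2 in the lymphoid organ (3.33%, against 0.727% of all). None was enriched in hepatopancreas (0 probes, against 6.97% of all) or muscle (0 probes, against 5.16% of all), and limma gave 0 in both with unadjusted p too. With undetected spots set in this way, 11 of the 12 gill probes and all 10 hemocyte probes were still at least 4-fold over their closest tissue.

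**Figure D2:**
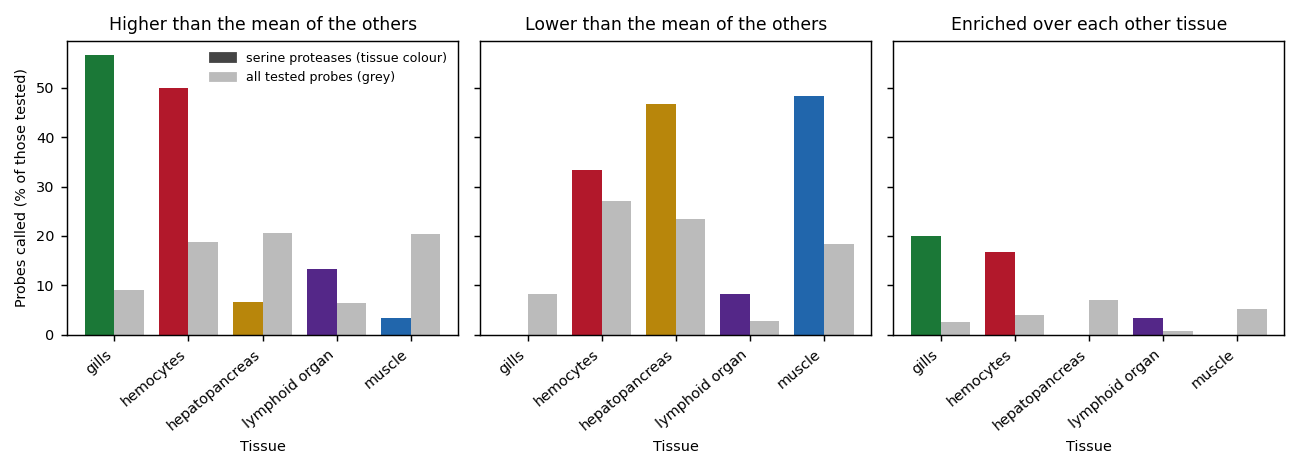
Percent of the 60 tested serine protease probes (coloured bars) and of all 10317 tested probes (grey bars) called higher, lower or enriched (vertical axes) in each tissue (horizontal axes). Gills and hemocytes stand above the grey bars among higher calls (56.7% and 50.0%), and hepatopancreas and muscle among lower calls (46.7% and 48.3%).

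The filter bears on these counts. Testing required detection on all usable arrays of 1 tissue or more, and 17 of the 60 passed through gills alone and 1 through hemocytes alone. Of those 17 probes, 15 were among the higher calls in gills and 10 among the enriched ones, so these had to differ to be tested. With no filter, 32 of all 68 probes were called higher in gills (6.56% of all 13875 probes) and 12 enriched (1.92% of all). Over all 68 probes without a filter, the median difference from the other tissues was 1.45 in gills (-0.34 over all probes). It was 0.60 in hemocytes (-0.23), -0.14 in the lymphoid organ (-0.02), -1.10 in hepatopancreas (0.00 over all) and -1.31 in muscle (0.16). These medians changed with undetected spots raised as described above. They were then 1.18 in gills, 0.29 in hemocytes, -0.66 in the lymphoid organ, -1.03 in hepatopancreas and -0.38 in muscle.

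The arrays lay on 2 slides, each with all 5 tissues. With slide as a block the counts of higher calls were 33 in gills (8.87% of all tested probes), 29 in hemocytes (18.8%), 7 in the lymphoid organ (6.12%), 4 in hepatopancreas (21.0%) and 2 in muscle (20.4%). Within slide 1 alone, which has 1 gill array, 5 of 65 tested members were higher in gills (0.903% of all tested probes there), and within slide 2 it was 22 of 63 (4.49% of all). For hemocytes the counts were 23 (9.21% of all) and 26 (8.05% of all) on the 2 slides, with 10 lower (13.4% of all) and 16 lower (15.6% of all). Members were lower in hepatopancreas for 9 (6.42% of all) and 19 probes (8.25% of all) and in muscle for 16 (11.9% of all) and 12 (2.81% of all).

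Clotting factor b-like probes showed the largest gill differences among the members. Clotting factor B is a clip-domain enzyme of the horseshoe crab clotting cascade. Clotting factor b-like (cluster034712) had levels of 4.82, 4.44 and 6.88 in gills. It was undetected on all hemocyte arrays (-3.60, -6.79, -6.85 and -6.05), all hepatopancreas arrays (-3.25, -3.99 and -5.57) and all muscle arrays (-3.14, -5.06 and -3.89), and in the lymphoid organ it was detected on 1 array (-4.95, -4.08 and -2.90). The gill arrays lay far above every other array.

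The mean of clotting factor b-like (cluster034712) in gills was 5.38 ± 1.31 (SD, n = 3), a log2 difference of 9.90 (SE 0.73, limma adjusted p = 8.25e-08) from the other tissues, and at least 242-fold over muscle, its closest tissue. A second probe of this description (cluster034708) had 2 usable gill spots, at 6.37 and 8.67, and the one on gills 2 was compromised and left out. Its lymphoid organ levels were -3.19, -4.24 and -1.52 and its muscle levels -2.21, -4.88 and -4.06, and it was undetected on all hemocyte and hepatopancreas arrays. On both probes gills 3 was the brightest gill array.

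The 3 tumorigenicity 14 probes did not share a tissue. Suppressor of tumorigenicity 14, also called matriptase in mammals, is a membrane-anchored serine protease of epithelia. Suppressor of tumorigenicity 14 (cluster023345) had levels of 3.51, 3.44 and 6.75 in gills and was undetected on each of the 13 arrays of the other tissues, whose highest value was -4.10. Suppression of tumorigenicity 14 (cluster006906) had 1.74, 2.77 and 4.26 in gills, and outside gills it was detected on lymphoid organ 3 alone, at -3.30. For both probes the gill arrays and the others did not overlap.

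The remaining one, suppressor of tumorigenicity 14 (cluster008944), was a hemocyte probe. Its levels were -0.38, -0.88, 0.10 and 0.40 in hemocytes, -3.44, -3.96 and -2.56 in gills, -2.25, -2.92 and -3.33 in hepatopancreas, and -0.95, -3.46 and -2.89 in the lymphoid organ, and it was undetected in muscle. All 4 hemocyte arrays lay above every other array, lymphoid organ 1 by the smallest margin. It was enriched in hemocytes, with a log2 difference of 3.01 (SE 0.46, adjusted p = 6.05e-05) and at least 4.73-fold over the lymphoid organ. Between gills and hemocytes the log2 difference was -3.13 (SE 0.61, adjusted p = 0.000778) for this probe, while the cluster023345 probe was at least 388-fold higher in gills (adjusted p = 7.39e-08). The hemocyte call of cluster008944 was lost within slide 1 (adjusted p = 0.055).

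Stubble is a membrane-anchored serine protease that shapes legs and wings in Drosophila. Of its 8 tested probes, 5 were higher in gills (62.5%, against 9.15% of all tested probes) and 3 in hemocytes (37.5%, against 18.8%). The other counts were 2 lower in hemocytes (27.1% of all), 3 lower in hepatopancreas (23.4%), 1 higher and 1 lower in the lymphoid organ (6.42% and 2.82%), and 1 higher and 2 lower in muscle (20.4% and 18.4%). Serine proteinase stubble (cluster006816), detected on all 16 arrays, had 4.38, 4.68 and 5.39 in gills, 2.76, 2.46, 3.77 and 3.77 in hemocytes, 2.21, 1.20 and 2.44 in muscle, 1.04, 0.80 and -0.28 in hepatopancreas, and 1.21, -0.37 and 0.22 in the lymphoid organ. Gill arrays were above all others, and the difference from hemocytes was 3.09-fold (log2 1.63, SE 0.51, adjusted p = 0.0252).

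Serine proteinase stubble-like (cluster017005) had 0.58, 0.88 and 4.47 in gills, with gills 3 apart from the other two, and the highest of the remaining arrays was hepatopancreas 4 at -2.27. It was at least 20.6-fold over hepatopancreas, its closest tissue (log2 difference from the other 4 tissues 5.73, SE 0.71, adjusted p = 2.87e-05), a call lost within slide 1 (0.111). Serine proteinase stubble (cluster032094) had 0.39, 0.86 and -2.12 in gills and was undetected on all other arrays. Serine proteinase stubble (cluster031719) had 1.88, 1.41 and -0.15 in gills, and its lowest gill value was just above its highest value elsewhere (-0.19, hepatopancreas 1).

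A pair of stubble probes showed the hemocyte pattern. Serine proteinase stubble (cluster028397) had 0.30, 4.31, 3.90 and 4.09 in hemocytes, 2.68, 0.64 and 0.93 in the lymphoid organ and -1.95, -0.79 and 0.11 in gills, and was undetected in hepatopancreas. Hemocytes 1 lay below all 3 lymphoid organ arrays and the other hemocyte arrays above them, so the groups overlapped. It was higher in hemocytes (log2 4.90, SE 0.66, adjusted p = 1.89e-05), and serine proteinase stubble (cluster028398) was too (3.81, SE 0.49, adjusted p = 1.10e-05). In muscle, serine proteinase stubble (cluster014112) had -0.20, -1.0 and -0.38 and was higher than in the mean of the others (log2 1.97, SE 0.68, adjusted p = 0.0307), although hemocytes 2 reached -0.18.

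Serine protease 27, a trypsin-like enzyme in mammals, had 4 probes. All 3 that were tested were higher in gills (9.15% of all tested probes were) and lower in hemocytes (27.1% of all). Serine protease 27-like (cluster024131) had 2.42, 2.65 and 3.83 in gills, against at most -2.20 on any other array, and was detected on 1 hemocyte array (-4.83, hemocytes 3). Its log2 difference from the other tissues was 6.60 (SE 0.52, adjusted p = 1.76e-07), at least 41.5-fold over hepatopancreas. Serine protease 27-like (cluster018773) was higher in both gills (-1.29, -0.28 and 0.35) and hepatopancreas (-0.69, -0.86 and -1.25), whose arrays overlapped. It was undetected on all 4 hemocyte arrays, and the lymphoid organ had -2.72, -2.31 and -1.82.

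Other gill-enriched probes carry general names. Serine proteinase (cluster007596) had 0.83, 0.96 and 5.67 in gills and was undetected on all 13 other arrays. Serine protease (cluster036440) had 0.89, 1.42 and -0.41 in gills and a log2 difference of 4.11 (SE 0.48, adjusted p = 1.45e-05), at least 7.28-fold over muscle. Within slide 1 the gill calls of cluster007596 (adjusted p = 0.0695) and cluster036440 (0.0709) were lost. CUB-serine protease (cluster013663), whose name comes from a protease with a CUB domain, had -1.46, -1.85 and -0.11 in gills and was undetected elsewhere. It was at least 2.64-fold over muscle, so its excess in detected signal is under the 4-fold of the enriched class.

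Gill levels of these probes varied between the 3 arrays. Of the 11 gill-enriched members with 3 usable gill spots, 8 were brightest on gills 3, 2 on gills 2 and 1 on gills 1, and 7 had a range above 2 log2 units. Whether all gill-enriched probes of the array split alike was not tested, so this is not called particular to the members. Leaving out gills 3 left 12 enriched probes, and leaving out gills 1 or gills 2 left 11. Of the 12 enriched probes, 9 were undetected on all 4 hemocyte arrays and 4 on every array of the other 4 tissues. Being undetected on all 4 hemocyte arrays held for 32.4% of the 68 members and 22.7% of all probes. Of the 12, 10 could be tested through gills alone. The shares among all gill-enriched probes are not given here, so these counts are not set apart from them. Muscle markers summed to 473 to 893 times the 75th percentile in gills and 43600 to 79200 in muscle. The part of other cell types in the gill levels was not tested beyond this, and in whole tissue a difference in the number of cells of a type and in RNA per cell cannot be told apart.

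**Figure D3:**
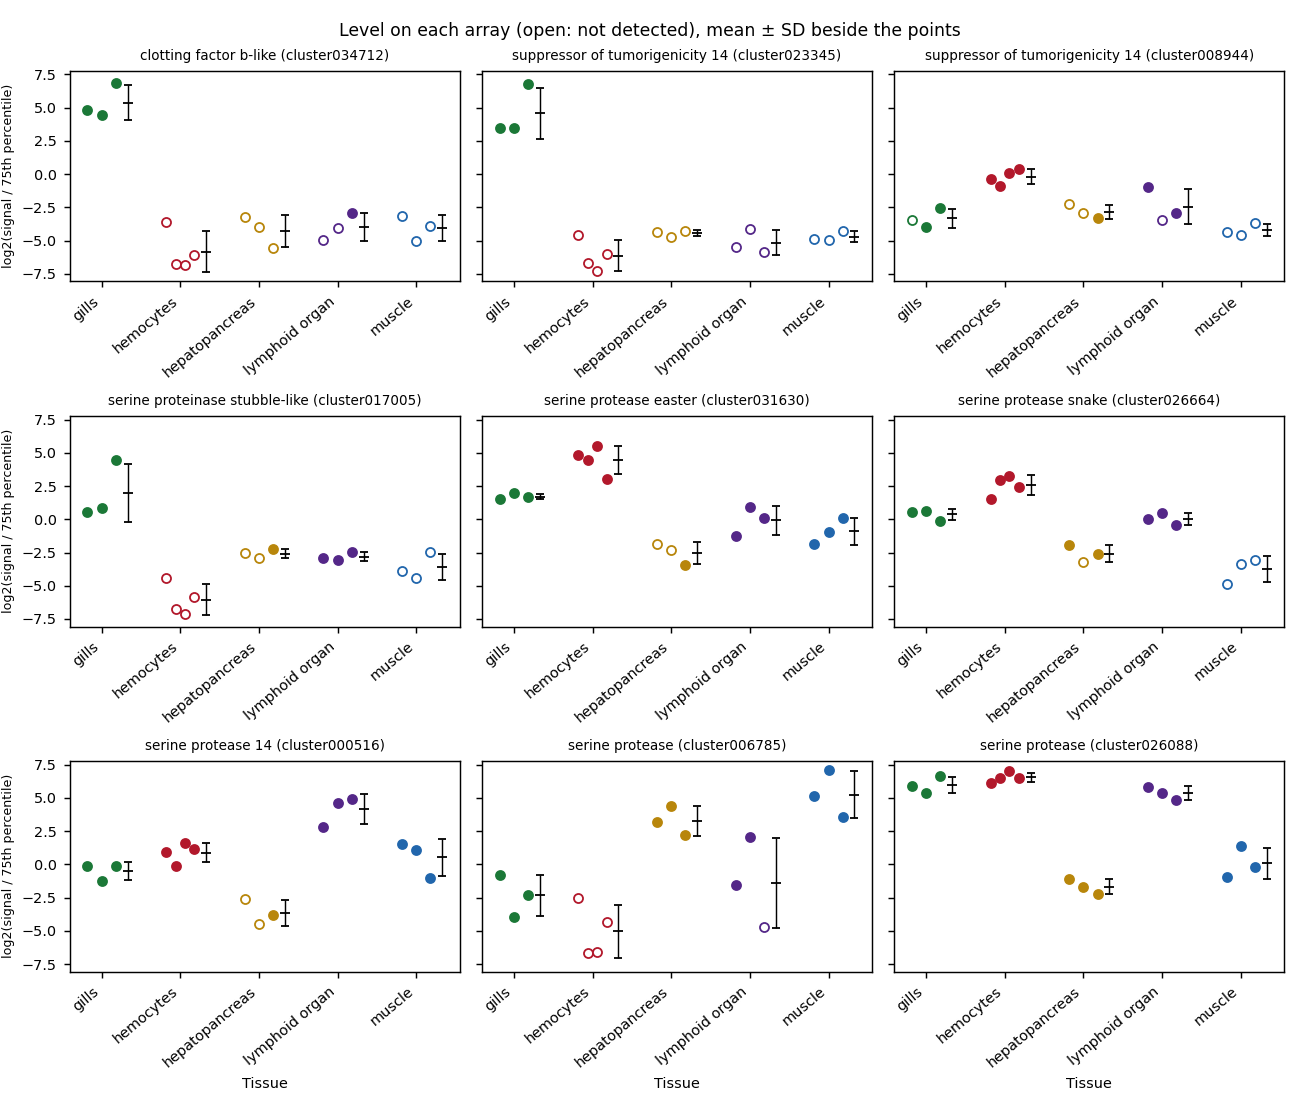
Log2 level of 9 serine protease probes (vertical axes) on each array of the 5 tissues (horizontal axes), filled where detected and open where not, with the mean and SD beside the points. Clotting factor b-like and the first suppressor of tumorigenicity 14 probe are detected on the gill arrays and nearly nowhere else, while the second suppressor of tumorigenicity 14 probe, easter and snake peak in hemocytes, serine protease 14 in the lymphoid organ and serine protease (cluster006785) in muscle.

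Easter and snake are successive clip-domain proteases that activate Spätzle in the Drosophila embryo. The serine protease easter probe (cluster031630) had 4.82, 4.47, 5.51 and 3.00 in hemocytes, 1.52, 1.95 and 1.67 in gills, -1.24, 0.91 and 0.13 in the lymphoid organ, -1.85, -2.31 and -3.44 in hepatopancreas, and -1.88, -0.94 and 0.09 in muscle. Hemocyte arrays were above all others and gill arrays formed the next step. It was enriched in hemocytes (4.45 ± 1.06 SD, n = 4; log2 difference 4.90, SE 0.49, adjusted p = 1.13e-06), 6.67-fold over gills.

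Each of the 3 snake probes was higher in hemocytes (18.8% of all tested probes were) and lower in muscle (18.4% of all). Serine protease snake (cluster026664) had 1.56, 2.98, 3.27 and 2.46 in hemocytes, 0.53, 0.66 and -0.09 in gills and 0.06, 0.49 and -0.45 in the lymphoid organ, and was undetected in muscle. Its hemocyte arrays overlapped with no other tissue, and it was enriched there, 4.60-fold over gills. Serine protease snake (cluster005033) had 1.73, 1.97, 1.58 and 2.61 in hemocytes and 3.24, 0.94 and 0.47 in the lymphoid organ, so these groups overlapped, and it was higher in both (adjusted p = 7.56e-05 in hemocytes and 0.00628 in the lymphoid organ). Serine protease snake (cluster035374) was dimmer, at -2.54, -1.28, -0.59 and 1.21 in hemocytes, and its call there was near the threshold (log2 1.78, SE 0.70, adjusted p = 0.0456).

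The serine proteinase homologues and the masquerade-like protein differed in their tissues. The SPH mRNA, a serine proteinase homologue transcript of this shrimp, had 6.46, 5.11, 5.94 and 3.33 in hemocytes, 4.37, 3.73 and 2.85 in gills, -0.09, 3.27 and 0.79 in the lymphoid organ, -2.80, 0.23 and -1.06 in muscle, and was detected on 1 hepatopancreas array (-2.27). Hemocytes and gills overlapped. It was higher in hemocytes (log2 4.88, SE 0.64, adjusted p = 1.38e-05) and in gills (2.93, SE 0.71, adjusted p = 0.00816), and the difference between gills and hemocytes did not pass the test (-1.56, SE 0.84, adjusted p = 0.205).

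Serine proteinase (cluster008450) followed the same order of tissues, with 6.41, 5.14, 5.70 and 3.1 in hemocytes, 4.28, 3.53 and 2.81 in gills and -0.42, 2.76 and 0.62 in the lymphoid organ. The other homologue probe (cluster035687) had -0.39, 0.86 and -0.36 in gills and -0.29, -0.72 and -1.0 in muscle, which overlapped, and was lower in hemocytes (log2 -1.77, SE 0.65, adjusted p = 0.0322). Masquerade is a catalytically inactive clip-domain protein of Drosophila.

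The masquerade-like protein (cluster008596) had 2.17, 3.41 and 3.54 in gills and -0.30, 4.15, 3.54 and -2.55 in hemocytes, where 2 arrays were as bright as gills and the other two far below. It had 0.92, -2.59 and -0.97 in the lymphoid organ, and the highest value in hepatopancreas or muscle was -1.15. It was higher in gills (log2 4.04, SE 1.03, adjusted p = 0.0113). This call was lost without gills 2 (adjusted p = 0.061) or gills 3 (0.0641) and within slide 1 (0.547) and slide 2 (0.082).

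Many of the hemocyte probes carry only the name serine protease or serine proteinase. Of these 30 tested probes, 17 were higher in hemocytes (56.7%, against 18.8% of all tested probes) and 9 lower (30%, near the 27.1% of all), and 16 were higher in gills (53.3%, against 9.15% of all). Serine protease (cluster009567) had 2.26, 1.60, 2.04 and 2.14 in hemocytes and at most -1.18 on any other array (lymphoid organ 1). It was 11.5-fold over the lymphoid organ, its closest tissue (log2 difference from the other 4 tissues 4.17, SE 0.45, adjusted p = 2.65e-06).

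Serine proteinase (cluster024299) had 6.28, 5.31 and 5.41 on its 3 usable hemocyte spots, 3.35, 2.54 and 3.59 in gills, and 3.96, 3.08 and 2.95 in the lymphoid organ. The hemocyte spots were above all others, 5.05-fold over the lymphoid organ on average. Serine protease (cluster023294) was 11.1-fold over the lymphoid organ, cluster033152 was 8.23-fold and cluster000915 7.45-fold over gills, and cluster013443 was 6.78-fold over the lymphoid organ, each the closest tissue. Adhesive serine protease (cluster026884) was at least 5.58-fold over muscle in hemocytes. Htra2 (cluster003476), the mitochondrial protease, had 2.34, 3.07, 3.57 and 2.64 in hemocytes, above every other array (at most 1.96, lymphoid organ 3).

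Most hemocyte probes were also detected in gills. Of the 30 probes higher in hemocytes, 28 were detected on all usable gill arrays, and of the 10 enriched ones 8 were. Detection on all usable gill arrays held for 82.4% of the 68 members and 55.4% of all probes. The share among all probes higher in hemocytes is not given here, so these counts are not set apart from it. The hemocyte marker list (32 probes) summed to 666 to 787 times the 75th percentile in gills and 3090 to 5920 in hemocytes. Its part in the gill levels of these probes was not tested.

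Gills and hemocytes were also set against each other directly. Of the 60 tested probes, 22 were higher (14.1% of all tested probes) and 15 lower (12.4% of all) in gills than in hemocytes, and all 37 differed at least 2-fold with undetected spots set as before. Within slide 1 the counts were 9 higher (5.49% of all tested probes there) and 3 lower (3.86%), and within slide 2 they were 20 higher (7.78%) and 8 lower (4.81%). Serine protease (cluster026088) was bright in both, at 5.91, 5.41 and 6.64 in gills and 6.13, 6.53, 7.02 and 6.53 in hemocytes, and the groups overlapped (log2 difference -0.56, SE 0.50, adjusted p = 0.47). The difference was at least 681-fold, higher in gills, for clotting factor b-like (cluster034712), and easter was 6.67-fold lower in gills (log2 -2.74, SE 0.64, adjusted p = 0.00387).

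Set against the remaining tissues one at a time, gills were higher for 34 and lower for 2 members than hepatopancreas (16.8% and 16.9% of all tested probes), for 18 and 3 than the lymphoid organ (4.83% and 4.32%), and for 39 and 2 than muscle (13.9% and 14.8%). Hemocytes were higher for 30 and lower for 12 than hepatopancreas (26.7% and 25.9% of all), for 18 and 10 than the lymphoid organ (6.70% and 14.8%), and for 31 and 6 than muscle (19.9% and 21.9%). Hepatopancreas was higher for 1 and lower for 19 than the lymphoid organ (10.1% and 14.6% of all) and for 10 and 5 than muscle (21.6% and 24.1%). The lymphoid organ was higher for 22 and lower for 2 than muscle (16.4% and 15.6% of all). These pairs share arrays.

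**Figure D4:**
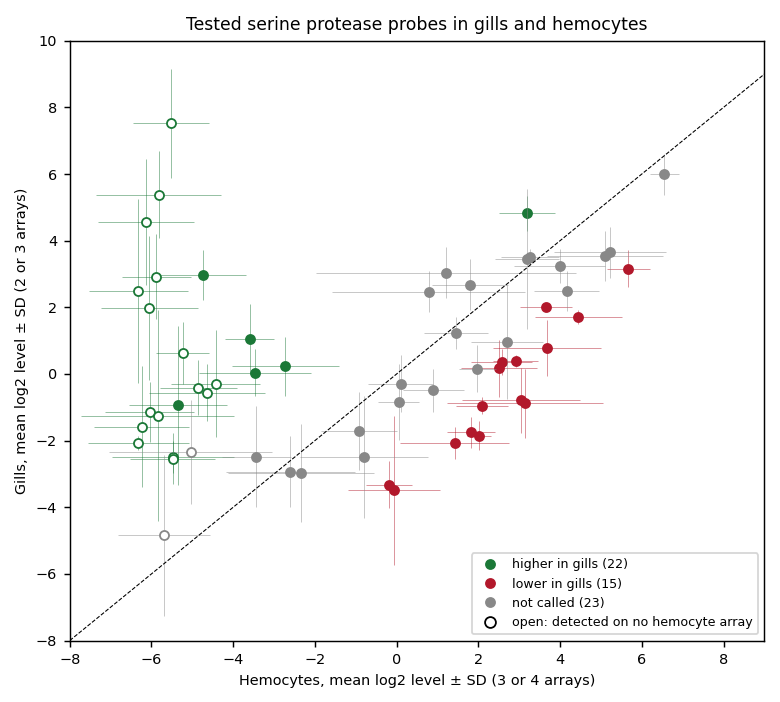
Mean log2 level of each of the 60 tested serine protease probes in gills (vertical axis) and hemocytes (horizontal axis), with bars for the SD over arrays and a dashed line of equal level. The 22 probes higher in gills lie mostly at the left edge, as open points detected on no hemocyte array, and the 15 lower in gills lie below the line as filled points.

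In the lymphoid organ, 8 members were higher, and its 2 enriched probes were both serine protease 14. Serine protease 14 (cluster000516) had 2.85, 4.65 and 4.95 in the lymphoid organ, 0.96, -0.14, 1.60 and 1.17 in hemocytes, 1.51, 1.10 and -1.03 in muscle, -0.11, -1.24 and -0.12 in gills, and -2.60, -4.51 and -3.81 in hepatopancreas. The lymphoid organ arrays were above all others, 9.52-fold over hemocytes (log2 difference from the other 4 tissues 4.83, SE 0.58, adjusted p = 0.000114). Within slide 2, with 1 lymphoid organ array, the adjusted p was 0.126.

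Serine protease 14 (cluster002308) had 4.57, 2.01 and 2.28 in the lymphoid organ, against at most 1.38 elsewhere (muscle 1), and was 7.22-fold over hemocytes. Its call was lost within each slide (adjusted p = 0.157 and 0.266). The remaining probe of the name (cluster002101) had 3.98, 2.12, 2.17 and 2.52 in hemocytes, 1.24, 2.52 and -0.86 in gills and 0.22, 0.34 and -2.04 in the lymphoid organ. Hemocytes and gills overlapped, it was higher in both (adjusted p = 2.82e-05 in hemocytes and 0.0326 in gills), and gills against hemocytes did not pass the test (log2 -1.73, SE 0.82, adjusted p = 0.141). Serine protease (cluster014127) was higher in both the lymphoid organ (3.05, 2.19 and 4.22) and hemocytes (1.32, 3.05, 2.22 and 3.41), which overlapped.

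Of the 5 probes lower in the lymphoid organ, serine proteinase stubble (cluster006816) had the smallest p (log2 -2.27, SE 0.43, adjusted p = 0.00321), and its call was lost within each slide (0.166 and 0.283). Serine protease (cluster008465) had -1.0, -0.44 and -0.79 there and 3.36, 1.42 and 5.61 in gills, and its call (adjusted p = 0.0238) was lost without any 1 of the lymphoid organ arrays (0.0759 to 0.112). Suppressor of tumorigenicity 14 (cluster023345) was undetected there, and its lower call (adjusted p = 0.0309) was lost without lymphoid organ 1 (0.136) or 3 (0.169). The probe was undetected in every tissue but gills, whose mean of 4.57 enters the mean of the others. Its mean was -5.14 in the lymphoid organ, -6.14 in hemocytes, -4.42 in hepatopancreas and -4.71 in muscle. Without lymphoid organ 1 the counts in this tissue were 4 higher, 1 lower and 1 enriched, without lymphoid organ 2 they were 5 higher and 2 lower, and without lymphoid organ 3 there were 2 lower. Without gills 2 the enriched count was 1. Within slide 1, limma called 1 member higher and 0 lower in the lymphoid organ (0.859% of all tested probes there were higher), and within slide 2 it called 0 in either direction (0.00885% of all higher).

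Close to 1 in 2 tested members were lower in hepatopancreas and in muscle, by the counts given above. In hepatopancreas, serine protease (cluster026088) had -1.11, -1.72 and -2.20, against 5.85, 5.4 and 4.84 in the lymphoid organ and -0.92, 1.36 and -0.16 in muscle, and with the gill and hemocyte levels above it was 72.1-fold lower than the mean of the others (log2 -6.17, SE 0.42, adjusted p = 2.10e-08). All hepatopancreas arrays were below every other array. Serine proteinase (cluster008450) was at least 21.3-fold lower (-5.40, SE 0.84, adjusted p = 7.45e-05) and serine protease (cluster027230) at least 15.8-fold lower (-4.92, SE 0.62, adjusted p = 9.14e-06).

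Muscle was lower for the same cluster027230 probe, undetected on its 3 arrays (log2 -4.61, SE 0.62, at least 17.3-fold), and for serine protease 45-like (cluster014141), at least 12.1-fold. The cluster014141 probe had -3.59, 0.25 and -3.89 in muscle and was detected there on muscle 2 alone. Muscle 2 lay above lymphoid organ 3 (0.21) and hepatopancreas 1 and 3 (-1.49 and 0.14), so these groups overlapped. Serine protease (cluster020688) was undetected on all muscle arrays (-3.67, -4.67 and -3.90) and had 1.76, 2.89 and 2.77 in gills. Its muscle call had an adjusted p of 0.000289 and was lost within slide 1 (0.0582). Of the 68 probes, 30 were undetected on every muscle array (44.1%, against 39.9% of all 13875 probes) and 15 detected on every one (22.1%, against 36.9%). In gills 56 were detected on every usable array (82.4%, against 55.4%). In hemocytes 32 were detected on every usable array (47.1%, against 43.9%) and 22 on none (32.4%, against 22.7%).

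Serine protease (cluster006785) went the other way. It had 5.15, 7.07 and 3.56 in muscle, 3.23, 4.43 and 2.20 in hepatopancreas, -1.56, 2.08 and -4.69 in the lymphoid organ, -0.80, -3.93 and -2.27 in gills, and was undetected on all 4 hemocyte arrays. Muscle and hepatopancreas overlapped and were above all other arrays, and the lymphoid organ arrays were widely spread. It was higher in muscle (log2 6.63, SE 1.14, adjusted p = 0.000239, at least 78.7-fold) and in hepatopancreas (4.16, SE 1.14, adjusted p = 0.00704), and at least 37.8-fold lower in hemocytes (adjusted p = 0.000122).

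The few other higher calls in these tissues were small. In hepatopancreas they were serine protease 27-like (cluster018773), serine protease (cluster010691) and serine protease (cluster002336), at least 2.55-fold, 2.00-fold and 3.30-fold over the mean of the others. The hepatopancreas count of 4 was 2 without hepatopancreas 1 and 7 without hemocytes 1. The muscle count of 2 was 1 without any 1 muscle array and 3 without gills 1, hemocytes 1, hemocytes 2 or lymphoid organ 1.

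The pathways that such proteases feed were followed with word lists over the same tests. Over all tested probes, for setting beside the list counts, the shares higher and lower were 9.15% and 8.16% in gills, 18.8% and 27.1% in hemocytes, 20.5% and 23.4% in hepatopancreas, 6.42% and 2.82% in the lymphoid organ, and 20.4% and 18.4% in muscle. Of 10 probes for prophenoloxidase, the melanin-forming enzyme, and its activating factor, hemocytes were higher for 8 and lower for 1, gills higher for 1, hepatopancreas higher for 2 and lower for 8, and muscle higher for 1 and lower for 8. The median difference of the 10 was 5.18 in hemocytes (-0.04 over all tested probes) and -0.05 in gills (-0.20). Prophenoloxidase (cluster018525) was higher in hemocytes by 6.04 on the log2 scale (SE 0.68, adjusted p = 3.40e-06), at least 64.8-fold. Phenoloxidase activating factor (cluster033300), the kind of protease that cuts prophenoloxidase, was higher in gills (log2 5.21, SE 0.53, adjusted p = 3.49e-06) and in hemocytes (4.80, SE 0.48, adjusted p = 1.13e-06) and undetected in hepatopancreas, where it was at least 64.9-fold lower (adjusted p = 1.23e-07).

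Among 14 tested clot-formation probes of 19, hemocytes were higher for 6 and lower for 5, gills higher for 3 and lower for 2, the lymphoid organ higher for 3 and lower for 0, hepatopancreas higher for 2 and lower for 8, and muscle higher for 2 and lower for 6. The largest of these shares were lower in hepatopancreas (57.1%), and higher in hemocytes and lower in muscle (42.9% each). Hemocyte transglutaminase (cluster016678), which cross-links the clotting protein, was higher in hemocytes by 6.39 on the log2 scale (SE 0.65, adjusted p = 1.30e-06), which is 83.9-fold, with mean levels of 8.74 in hemocytes, 4.23 in gills and 4.82 in the lymphoid organ. Von Willebrand factor probes of this list went other ways. The probe for a von Willebrand factor, EGF and pentraxin protein (cluster034156) was at least 131-fold higher in hepatopancreas, and that for a von Willebrand factor D and EGF protein (cluster003468) was at least 70.7-fold lower in hemocytes.

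Of the recognition list, 19 of 20 probes were tested, and the lymphoid organ was higher for 9 (47.4%) and lower for 0, with a median of 2.67 (0.10 over all tested probes). Hemocytes were higher for 6 and lower for 4, hepatopancreas higher for 4 and lower for 6, gills higher for 1 and lower for 3, and muscle higher for 0 and lower for 10 (52.6%). Most probes of the list are anti-lipopolysaccharide factors, which are antimicrobial peptides, and the counts are not split between them and the glucan-binding proteins. An anti-lipopolysaccharide factor probe (cluster015821) was at least 285-fold higher in the lymphoid organ and at least 8.19-fold lower in hemocytes. Beta-glucan-binding protein (cluster023471) was higher in hepatopancreas (10.29, SE 1.17, adjusted p = 3.04e-06).

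Of 18 tested Toll pathway probes of 21, the lymphoid organ was higher for 4 and lower for 0, hepatopancreas higher for 3 and lower for 4, muscle higher for 2 and lower for 6, and gills and hemocytes each higher for 2 and lower for 1. The shares in hepatopancreas (16.7% higher and 22.2% lower) were near those of all tested probes or below them, and that of higher calls in the lymphoid organ was 22.2%. Words of this list also matched tectonin and tolloid, whose main roles lie elsewhere, and ECSIT, described as a signaling intermediate in Toll pathways. The spatzle probe (cluster033998) was higher in the lymphoid organ (log2 3.28, SE 0.91, adjusted p = 0.0338), a call lost without any 1 lymphoid organ array (0.0602 to 0.173) or without hepatopancreas 3 (0.0501). A toll-like receptor probe (cluster016629) was at least 40.9-fold higher in hepatopancreas and at least 4.19-fold lower in gills (adjusted p = 0.0308), the second call lost without gills 2 (0.206) or gills 3 (0.135) and within slide 1 (0.678).

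Protease inhibitors block such enzymes. Of 46 tested inhibitor probes of 52, gills were higher for 16 and lower for 5, hemocytes higher for 19 and lower for 22, the lymphoid organ higher for 10 and lower for 4, hepatopancreas higher for 7 and lower for 25, and muscle higher for 3 and lower for 24. As shares, 34.8% were higher and 10.9% lower in gills, 41.3% and 47.8% in hemocytes, 15.2% and 54.3% in hepatopancreas, and 6.52% and 52.2% in muscle. The alpha 2-macroglobulin probe (cluster015622), a general protease trap, was higher in hemocytes (log2 6.83, SE 0.52, adjusted p = 1.02e-07) and at least 111-fold lower in hepatopancreas (-6.85, SE 0.57, adjusted p = 9.39e-08). Of 7 probes described as protease inhibitor epi11, the 2 with the largest differences were highest there, at least 1350-fold (cluster006744) and 907-fold (cluster006745) over the mean of the others, while cluster011645 and cluster012074 of that description were lower in hepatopancreas.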

How the data were processed

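Total RNA of 16 samples was labelled with Cy3 and hybridised to 1 array each. Signal intensity came from Agilent Feature Extraction 10.7.3.1, per the submitters' processing notes, and the authors deposited linear processed intensities and detection flags per the file headers. The deposited log2 value table equals the log2 of these signals minus a constant for each array, close to its log2 75th percentile; the authors' scale was otherwise not stated, and the table served as an alternative. Saturation flags were not used here, nor genome positions and probe sequences.

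Signals were divided by the 75th percentile of the 13875 non-control probes and log2-transformed, with compromised spots (2 among the members) set to missing. Detection on all usable arrays of 1 tissue or more was required, which left 10317 probes and removed 3558. Tissue means were estimated in limma 3.58.1 (R 4.3.3), whose variance prior followed the mean level, with 11 residual degrees of freedom and 5.36 from the prior. Each tissue was set against the mean of the other 4 and against each other tissue, and p-values were adjusted by Benjamini-Hochberg over all tested probes. The procedure was tested on simulated data. For every fold given as "at least", each undetected spot below the dimmest detected signal on its array was raised to that signal. Undetected spots above it kept their value.

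The members, the pathway lists and the rules for naming probes were chosen with earlier results of these data known. Named by rule were, per tissue, up to 8 enriched members and the 3 lowest members, per description class the 3 with the widest span, and up to 2 list probes in each direction. Other members were named after their values were seen. Alternatives were other scalings, filters, floors, priors and weights, slide or replicate number as a block, the value table, virus probes removed, 1 probe per description, and the omission of each array in turn. Added after seeing the data were fits within each slide and without gills 1, muscle 1 and hemocytes 4 together.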

Additional observations from a re-analysis of the deposited data

Results flagged for a closer look

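Of the 28 members named by rule, 3 had 1 hemocyte array far from the other hemocyte arrays, as judged by the gap to the nearest array over the whole range, beyond Dixon's 95% critical value for 4 arrays. Members named outside the rule were not in this check. Among them is serine proteinase stubble (cluster028397), with hemocytes 1 far below its other hemocyte arrays. Chance gives this in about 5% of such groups. Serine protease 14 (cluster002308) was at 1.27 on hemocytes 2 and between -0.43 and -0.22 on the other hemocyte arrays. Serine protease (cluster008465) was at 2.02 on hemocytes 4 and between 3.46 and 3.74 on the others. Serine protease (cluster020688) was at -2.73 on hemocytes 1, where it was not detected, and between 1.70 and 2.19 on the others.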

How the results depend on the processing

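Of 54 named probe differences, each under 31 alternatives, none reversed (0 of 1674 values), 1641 stayed on the same side of the threshold and 33 lost their call. These probes were named by rule for large differences or spans in the same data, a choice that favours stable calls. Members named after their values were seen, some with calls near the threshold, are not in this count. Of 285 recomputed counts other than those leaving out 1 array, 238 were within 1.5 times the reported count. Within slide 1 (lone arrays there were assumed to vary like the other groups), gills had 5 higher and 0 enriched, hemocytes 10 lower and 2 enriched, hepatopancreas 0 higher and 9 lower, the lymphoid organ 1 higher, 0 lower and 0 enriched, muscle 1 higher and 16 lower, and gills were higher than hemocytes for 9 and lower for 3. Within slide 2, gills had 22 higher and 5 enriched, hemocytes 0 enriched, hepatopancreas 1 higher, the lymphoid organ 0 higher, 0 lower and 0 enriched, muscle 1 higher and 12 lower, and gills were lower than hemocytes for 8. These fits use fewer arrays. With 1 probe per description, at most 23 members were left to count, so these counts cannot be set directly beside those of the 60. Gills then had 12 higher and 4 enriched, and hemocytes 12 higher, 5 lower and 4 enriched. Hepatopancreas had 0 higher and 11 lower, the lymphoid organ 4 higher, 2 lower and 1 enriched, and muscle 0 higher and 11 lower. Over all 10317 tested probes, 9.15% were higher in gills, and 18.8% were higher and 27.1% lower in hemocytes. Lower were 23.4% in hepatopancreas and 18.4% in muscle. How many of the at most 23 were tested is not given here, so no share of them is set beside these. Higher in hepatopancreas were 7 with common-probe scaling and 2 with the stricter filter. Higher in muscle were 4 with quantile or median scaling and 1 with common-probe scaling or the stricter filter. The lymphoid organ had 5 higher with median scaling and 8 lower with array weights. Without gills 1, muscle 1 and hemocytes 4 together, gills had 1 lower, the lymphoid organ 3 lower and muscle 1 higher. The cause of these shifts in scaling, filter and weights was not tested.

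Leaving out 1 array at a time gave, for gills, 24 to 35 higher, 0 to 1 lower and 11 to 13 enriched; for hemocytes, 26 to 30 higher, 18 to 22 lower and 8 to 12 enriched; for hepatopancreas, 2 to 7 higher, 24 to 29 lower and 0 enriched. The lymphoid organ had 4 to 9 higher, 1 to 5 lower and 1 to 2 enriched, and muscle 1 to 3 higher, 21 to 30 lower and 0 enriched. Gills were higher than hemocytes for 21 to 23 and lower for 13 to 17.

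Replicate numbers showed no clear pairing of the samples. Deviations from the tissue means of same-numbered arrays correlated at -0.405 to 0.399 (median 0.021, 27 pairs), and of others at -0.283 to 0.342. With 3 or 4 arrays per tissue, this cannot tell whether same-numbered samples came from the same animal. With the replicate number as a block, 31 members were higher in gills and 3 lower in the lymphoid organ, where suppressor of tumorigenicity 14 (cluster023345) lost its call (adjusted p = 0.0622). Common-probe scaling moved the median of all probes by up to 0.51 in hepatopancreas (0.17, against -0.34). Median and common-probe scaling shift all probes of an array alike, so they cannot change a difference between members and all probes. Under quantile normalization that difference in gills was 2.30, against 2.42 with 75th-percentile scaling.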

Other observations

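Of the 68 members, 8 were not detected on all usable arrays of any tissue and were not tested. Serine protease nudel (cluster036776), named for the enzyme that starts the embryonic protease cascade in Drosophila, was at 6.11 on hepatopancreas 4, against -4.50 and -4.53 (both not detected) on the other hepatopancreas arrays, and at most -0.62 (muscle 1) on any array of another tissue. Serine protease (cluster035808) was detected on 3 of 4 hemocyte arrays, at -0.96, -0.06 and 0.78, and not on hemocytes 4 (-4.24). Adhesive serine protease (cluster016688) was detected on gills 1 and 2 (-2.97 and -3.1) and on hepatopancreas 1 and 4 (-1.73 and -3.61) and not in hemocytes, where the other probe of that name (cluster026884) was enriched. Serine protease 27 (cluster005949), subtilisin-like serine protease (cluster035570), serine proteinase (cluster024314), serine proteinase stubble (cluster034475) and the second CUB-serine protease (cluster008272) were below 0 on every array.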
